A study of Mus musculus with 12 samples.

Results

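Claudin-5 (Cldn5) and 7 further genes of the tight junction (Cldn12, Ocln, Lsr, F11r, Jam2, Tjp1 and Cgn) were followed in mouse brain after photodynamic therapy. The 8 genes were chosen by symbol, 1 row each among the 54532 genes of the deposited table, and all 8 passed the filter on low values. RNA came from brain tissue 1.5 h, 12 h or 48 h after photodynamic therapy (PDT) and from controls titled PBS and labelled untreated, with 3 libraries in each of 4 groups. Treated mice had 5-aminolevulinic acid (5-ALA, a precursor that cells turn into a light-activated porphyrin) at 20 mg/kg, and 635 nm laser light at 20 J/cm2 was given 30 min later. BALB/c stands in one label and C57BL/6 in another, so the strain is unsettled, and age, sex and brain region are not given. One treatment protocol is attached to all samples, PBS included, so light or injection in the controls is unknown. Mice were perfused with 0.9% NaCl before the brain was taken. Nothing in the labels says that each library is a separate mouse, so p-values measure the spread between libraries.

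Tight junctions seal the space between neighbouring cells, and in brain capillaries they are the paracellular part of the blood-brain barrier. Claudins form the strands that span the gap, claudin-5 being the main claudin of brain endothelium. Occludin (Ocln) is built into the same strands, and angulin-1 (Lsr) marks the corners where 3 cells meet. The junctional adhesion molecules JAM-A (F11r) and JAM-B (Jam2) are immunoglobulin-like adhesion proteins of the same contacts. On the inner side, ZO-1 (Tjp1) and cingulin (Cgn) are scaffold proteins that tie the strands to the actin cytoskeleton. Claudin-12 (Cldn12) is an unusual claudin whose tail lacks the PDZ-binding motif by which other claudins attach to ZO proteins.

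Cldn5 lies on chromosome 16 at 18776847 to 18778262 (GRCm38, plus strand, ENSMUSG00000041378) and has 1 annotated transcript with a single exon of 1416 bases. Lsr lies on the minus strand of chromosome 7 at 30957770 to 30973464 (ENSMUSG00000001247), with up to 10 exons. These were the members that rose at both 12 h and 48 h, and their promoters are printed for that reason, from 250 bases before to 50 bases after the RefSeq start site (GRCm38.p6, chr16:18776597-18776896, plus strand, and chr7:30973420-30973719, minus strand). Capitals mark matches on either strand to 1 of 6 short motifs, which do not overlap here.
Cldn5: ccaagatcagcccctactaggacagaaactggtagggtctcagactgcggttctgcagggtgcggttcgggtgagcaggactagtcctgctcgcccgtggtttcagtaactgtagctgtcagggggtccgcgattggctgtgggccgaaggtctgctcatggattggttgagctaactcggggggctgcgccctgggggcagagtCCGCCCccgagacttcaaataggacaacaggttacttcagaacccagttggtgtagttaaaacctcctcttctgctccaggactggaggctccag
Lsr: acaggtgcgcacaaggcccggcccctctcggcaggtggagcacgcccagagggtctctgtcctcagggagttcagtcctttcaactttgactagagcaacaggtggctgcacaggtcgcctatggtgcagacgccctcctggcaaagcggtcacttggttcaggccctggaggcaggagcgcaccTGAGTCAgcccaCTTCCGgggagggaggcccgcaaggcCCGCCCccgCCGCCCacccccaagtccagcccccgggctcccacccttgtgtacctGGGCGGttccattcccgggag
The motifs searched were the SP1 GC box GGGCGG, the TCF/LEF motif CTTTGAT, the FOXO motif TGTTTAC, the AP-1 motif TGANTCA, the ETS motif CGGAAG and the TATA box TATAAA. The Cldn5 window held 1 GC box, on the opposite strand 45 bases before the start, and none of the other letters. The Lsr window held 3 GC boxes, an AP-1 match 65 bases before the start and an ETS match on the opposite strand 53 bases before it. GC boxes occurred in 35.66% of all 32851 promoter windows of this length, AP-1 matches in 7.81% and ETS matches in 16.85%. The other motifs, TCF/LEF, FOXO and TATA box, occurred in 3.73%, 3.65% and 13.62% of windows. Windows were at hand for 7 of the 8 members, all except Jam2, and of the 7 only F11r shared with Lsr a match to the AP-1 letters. Such matches describe the letters in these windows and are not binding sites.

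Libraries held 15348579 to 17444654 recovered reads. Replicates 1 and 3 of the 1.5 h group stood apart. Of their reads, 12.4% and 9.14% were mitochondrial, against 4.16% to 6.14% in the other 10 libraries. Their long genes were low: log2 values changed by -0.14 and -0.09 for each doubling of length, against -0.04 to 0.01 elsewhere. Replicate 1 of the 48 h group was rich in vascular and choroid plexus genes, as given below with the results. Neuron, astrocyte, oligodendrocyte and microglia markers were all present, and all 7 neuron markers were above the filter.

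FPKM values are corrected for gene length and depth, so levels can be compared between genes. In PBS brains Cldn5 had the highest level of the 8 genes, with 14.3 ± 0.997 FPKM (SD, n = 3), followed by Tjp1 with 12.9 ± 0.215 FPKM, Cldn12 with 10.7 ± 0.831 FPKM and Jam2 with 4.93 ± 0.56 FPKM. The libraries of these neighbours did not overlap. F11r, Ocln, Lsr and Cgn were lower, at 1.50 ± 0.227, 1.26 ± 0.207, 1.09 ± 0.158 and 0.928 ± 0.247 FPKM, and each overlapped the next in this order. At 48 h the first 4 places were the same, and Lsr, at 2.40 ± 0.436 FPKM, had moved up to the fifth, where its libraries overlapped those of F11r. These low levels rest on few reads. The 12 libraries held 16 to 118 reads of Lsr, 22 to 143 of Cgn, 23 to 188 of Ocln and 29 to 175 of F11r, against 214 to 1201 of Cldn5 and 503 to 2401 of Tjp1.

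**Figure D1:**
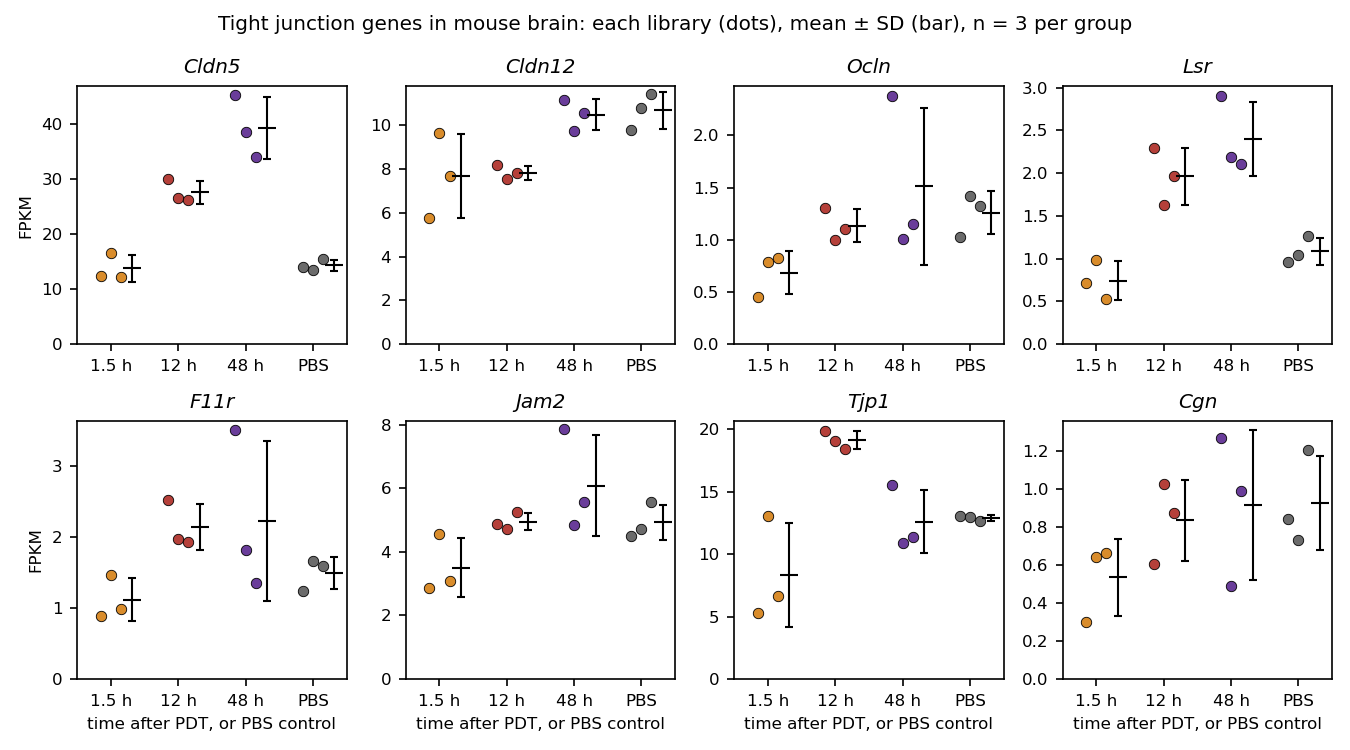
FPKM of each member (vertical axes, from 0) in each of the 12 libraries, grouped by time after PDT with PBS at the right. Dots are libraries and bars are mean ± SD of 3; Cldn5 and Lsr at 12 h and 48 h lie above all their PBS libraries.

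Cldn5 was higher in all 12 h and all 48 h libraries than in any PBS library. It had 12.4, 16.6 and 12.3 FPKM in 1.5 h replicates 1, 2 and 3. In 12 h replicates 1 and 2 and the 12 h library without a number it had 30.0, 26.7 and 26.2 FPKM. In 48 h replicates 1, 3 and 4 it had 45.3, 38.6 and 34.1 FPKM, against 14.1, 13.5 and 15.4 FPKM in PBS replicates 1, 2 and 4. The 1.5 h libraries thus lay around the PBS libraries, the 12 h libraries lay above them, and the 48 h libraries lay above those of 12 h. The ratio of mean FPKM to PBS was 0.962 at 1.5 h, 1.93 at 12 h and 2.74 at 48 h. On the log2(FPKM + 1) scale, on which all changes and their standard errors (SE) are given, Cldn5 changed by 0.90 ± 0.15 at 12 h (limma, Benjamini-Hochberg adjusted p = 0.00144) and by 1.39 ± 0.15 at 48 h (adjusted p = 0.000139). At 1.5 h its change was -0.06 ± 0.15 (adjusted p = 0.788), with a 95% confidence interval of -0.38 to 0.26. By p it ranked 144 of 17664 genes at 48 h and 826 at 12 h.

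Cldn12, the other claudin among the members, did not follow Cldn5. It had 5.78, 9.63 and 7.67 FPKM at 1.5 h, 8.17, 7.53 and 7.80 FPKM at 12 h and 11.1, 9.74 and 10.6 FPKM at 48 h, against 9.78, 10.8 and 11.4 FPKM in PBS, with replicates in the order above. All 1.5 h and all 12 h libraries lay below the PBS libraries, as did the 12 h libraries of 26.2% of all genes, while those of 48 h overlapped them. Its changes were -0.45 ± 0.15 at 1.5 h, -0.40 ± 0.15 at 12 h and -0.02 ± 0.15 at 48 h, none past the threshold (adjusted p = 0.101, 0.0814 and 0.945). At 12 h it did pass after quantile normalization (-0.47, adjusted p = 0.041) and in a fit of 2 groups alone (adjusted p = 0.00677). Within each library the FPKM of Cldn5 was 1.6 to 2.15 times that of Cldn12 at 1.5 h, 3.36 to 3.67 times at 12 h and 3.22 to 4.07 times at 48 h, against 1.25 to 1.44 times in PBS.

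Ocln, the other protein of the strands with a long history as a barrier marker, had no change past the threshold at any time. It had 0.448, 0.783 and 0.830 FPKM at 1.5 h, 1.31, 0.998 and 1.10 FPKM at 12 h and 2.38, 1.01 and 1.15 FPKM at 48 h, against 1.03, 1.42 and 1.33 FPKM in PBS. The 1.5 h libraries were all below PBS, and at 48 h replicate 1 was high while the others lay within or just below the PBS range. Changes were -0.42 ± 0.19 at 1.5 h, -0.08 ± 0.19 at 12 h and 0.12 ± 0.19 at 48 h (adjusted p = 0.149, 0.815 and 0.746). The 95% interval at 48 h ran from -0.29 to 0.53. It cannot be set directly against the Cldn5 estimate, since this scale understates changes of genes as low as Ocln. The FPKM of Cldn5 was 14.8 to 27.7 times that of Ocln at 1.5 h, 23.0 to 26.7 times at 12 h and 19.0 to 38.2 times at 48 h, against 9.48 to 13.7 times in PBS. At each time the range lay above that of PBS (exact two-sided permutation p = 0.1, the smallest that 3 against 3 libraries allow). Long genes were low in 1.5 h replicates 1 and 3, and Ocln is longer than Cldn5 (4222 against 1416 bases). The part of length in the 1.5 h ratios of Cldn5 to other members was not tested.

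Lsr, which in tricellular corners recruits tricellulin (Marveld2), was the other member that rose. It had 0.720, 0.987 and 0.527 FPKM at 1.5 h, 2.29, 1.63 and 1.97 FPKM at 12 h and 2.90, 2.19 and 2.11 FPKM at 48 h, against 0.958, 1.04 and 1.26 FPKM in PBS. All 12 h and all 48 h libraries were above the PBS libraries, and at 1.5 h only replicate 2 reached them. Mean FPKM was 1.80 times that of PBS at 12 h and 2.20 times at 48 h. The change was 0.50 ± 0.14 at 12 h (adjusted p = 0.0283) and 0.70 ± 0.14 at 48 h (adjusted p = 0.00852), and with a pseudocount of 0.1 in place of 1 these were 0.79 and 1.07. At 1.5 h it was -0.27 ± 0.14 (adjusted p = 0.215). Of the 2172 exonic bases of Lsr, 946 overlap Gm4673, a gene on the opposite strand, and whether the reads were counted by strand is not given in the sources used here. Gm4673 was at 0.866 to 1.04 FPKM at 12 h and 0.933 to 1.33 FPKM at 48 h, against 0.732 to 1.02 FPKM in PBS, so its own level overlapped PBS at both times. Marveld2 had 1.35 ± 0.207 FPKM at 12 h against 0.57 ± 0.129 FPKM in PBS, and its change of 0.58 ± 0.21 missed the threshold (adjusted p = 0.0695).

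Neither junctional adhesion molecule passed the threshold against PBS. F11r, which platelets and leukocytes carry as well as endothelium, had 0.897, 1.47 and 0.993 FPKM at 1.5 h, 2.52, 1.98 and 1.93 FPKM at 12 h and 3.51, 1.83 and 1.36 FPKM at 48 h, against 1.24, 1.66 and 1.59 FPKM in PBS. The 12 h libraries were all above PBS, while at 48 h replicates 1 and 3 were above PBS, replicate 1 by far, and replicate 4 lay within the PBS range. Its changes of -0.24 ± 0.21, 0.33 ± 0.21 and 0.32 ± 0.21 at 1.5 h, 12 h and 48 h did not pass (adjusted p = 0.442, 0.308 and 0.377), and the last was 0.05 without 48 h replicate 1. Jam2 had 2.86, 4.56 and 3.10 FPKM at 1.5 h, 4.88, 4.73 and 5.25 FPKM at 12 h and 7.86, 4.83 and 5.57 FPKM at 48 h, against 4.5, 4.72 and 5.56 FPKM in PBS. Its 12 h libraries fell inside the PBS range. Changes of -0.41 ± 0.18, 0.01 ± 0.18 and 0.24 ± 0.18 did not pass (adjusted p = 0.14, 0.98 and 0.433), and the 48 h value was 0.07 without replicate 1.

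Of the scaffold proteins, Tjp1 was highest at 12 h. It had 5.30, 13.0 and 6.66 FPKM at 1.5 h, 19.9, 19.0 and 18.4 FPKM at 12 h and 15.5, 10.9 and 11.4 FPKM at 48 h, against 13.1, 13.0 and 12.6 FPKM in PBS. The 12 h libraries were all above every other library of this gene, and the PBS libraries differed from each other by little. At 1.5 h replicates 1 and 3 were low and replicate 2 was at the PBS level. The change at 12 h was 0.53 ± 0.24 (adjusted p = 0.149) in the fit of all 4 groups, where the spread of the 1.5 h libraries enters the error. With only the 12 h and PBS libraries in the fit, the same change passed (adjusted p = 0.000824). Changes at 1.5 h and 48 h were -0.66 ± 0.24 and -0.04 ± 0.24 (adjusted p = 0.111 and 0.933). Cgn had 0.301, 0.641 and 0.665 FPKM at 1.5 h, 0.607, 1.03 and 0.876 FPKM at 12 h and 1.27, 0.490 and 0.990 FPKM at 48 h, against 0.844, 0.734 and 1.21 FPKM in PBS. Except at 1.5 h, where all libraries were lower, its libraries overlapped PBS, and changes of -0.33 ± 0.18, -0.07 ± 0.18 and -0.02 ± 0.18 did not pass (adjusted p = 0.216, 0.834 and 0.955).

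**Figure D2:**
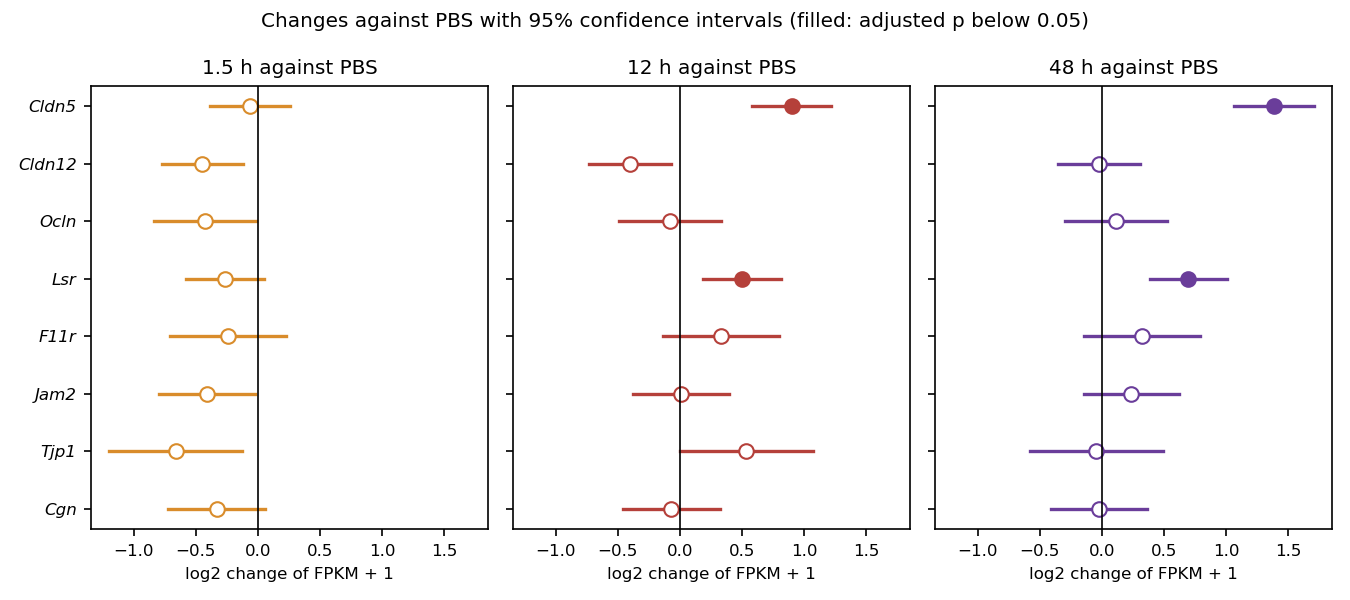
Change of each member against PBS (horizontal axis, log2 of FPKM + 1) at 1.5 h, 12 h and 48 h, with points for the limma estimate and lines for the 95% confidence interval. Filled points, Cldn5 and Lsr at 12 h and 48 h, passed an adjusted p of 0.05.

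At 1.5 h, 0 of the 8 members passed the threshold (limma, FDR 0.05), against 0.555% of all 17664 genes tested. At an unadjusted p of 0.05, 4 of the 8 did (Ocln, Tjp1, Jam2 and Cldn12), as did 5581 of all genes. All 8 estimates were negative, with a median of -0.37 against 0.02 over all genes, and 3 members had all 1.5 h libraries below PBS, against 12% of all genes. Those 3 were Ocln, Cgn and Cldn12, at 0.783, 0.641 and 9.63 FPKM in replicate 2, so for them replicate 2 was low as well. As a mean over the 8 members, the low level was mostly in the 1.5 h replicates that stood apart. The mean log2 deviation of the members from the PBS mean was -0.57 and -0.41 in replicates 1 and 3 and -0.08 in replicate 2. Without replicates 1 and 3, which leaves a single 1.5 h library assumed to vary like the other groups, estimates were -0.34 for Ocln, 0.02 for Tjp1, -0.09 for Jam2, -0.13 for Cldn12 and 0.20 for Cldn5. Without replicate 2 instead, Tjp1, Jam2 and Cldn12 passed as falls (-1.0, -0.57 and -0.60). Length correction left 0 of 8 past the threshold and Tjp1 at -0.55.

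At 12 h, 2 of the 8 members rose and 0 fell, against 13.3% and 7.9% of all genes. The median change of the members was 0.17 against 0 over all genes, and 4 members (Cldn5, Tjp1, F11r and Lsr) had all 12 h libraries above PBS, as did 28.2% of all genes. At 48 h, again 2 rose and 0 fell, against 7.5% and 5.01% of all genes, with a median of 0.18 against 0, and Cldn5 and Lsr alone of the 8 had all libraries above PBS, against 21.1% of all genes. The split of all genes moved with the scaling. At 12 h 2342 rose and 1395 fell, and after quantile normalization 2175 rose and 2431 fell. At 48 h 1324 rose and 885 fell, and after rescaling libraries to the same FPKM sum 1087 rose and 391 fell. With endothelial scaling 595 rose and 1122 fell at 12 h, and 374 rose and 1416 fell at 48 h. The rescaling to the same FPKM sum moved the median of all genes to -0.34 at 1.5 h, -0.10 at 12 h and -0.04 at 48 h. The comparisons share their PBS libraries and are not independent. Cldn5 made up 34.8% to 43.3% of the summed FPKM of the 8 members at 1.5 h, when its own level overlapped PBS, 41.2% to 43.1% at 12 h and 50.4% to 55.4% at 48 h, against 28.8% to 30.9% in PBS. Cldn5 is the shortest of the 8 genes, and the part of length in its 1.5 h share was not tested. In the overall test of the 4 groups, Cldn5 (adjusted p = 9.6e-05), Lsr (adjusted p = 0.00153), Tjp1 (adjusted p = 0.018) and Cldn12 (adjusted p = 0.0488) differed among groups, against 38.4% of all genes (limma F-test). The other 4 did not pass, with adjusted p from 0.0561 (Jam2) to 0.329 (Cgn).

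The call for Cldn5 at 48 h held in all 17 alternatives run, with changes of 1.05 to 1.48 and adjusted p up to 0.0129. Its call at 12 h was lost in 3 of 17 alternatives. These were rescaling to the same FPKM sum (0.77, adjusted p = 0.0874), scaling to endothelial markers (0.59, adjusted p = 0.0987) and a replicate block. Lsr lost its call at 48 h in the same 3 alternatives (adjusted p = 0.0567 and 0.213 under the 2 scalings). At 12 h Lsr lost its call in 9 of 17 alternatives. Among them were leaving out PBS replicate 1 (adjusted p = 0.103), PBS replicate 2 (0.0886), 12 h replicate 1 (0.103) or the 12 h library without a number (0.0784).

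Between times, Cldn5 was higher at 48 h than at 12 h, by 0.49 ± 0.15 (limma, adjusted p = 0.0442), the only rise among the 8 in that comparison, in which 5.88% of all genes rose. That call was lost in 10 of 16 alternatives, and the change was 0.38 without 48 h replicate 1 (adjusted p = 0.118). Tjp1 went the other way, at 10.9 to 15.5 FPKM in 48 h libraries against 18.4 to 19.9 FPKM in 12 h libraries, with a change of -0.58 ± 0.24 that missed the threshold (adjusted p = 0.136) but passed in a fit of those 2 groups alone (adjusted p = 0.0257). Tjp1 lay below all 12 h libraries, as did 22.2% of all genes. Cldn12 lay above all of them (0.38 ± 0.15, adjusted p = 0.114), as did 21.4% of all genes. The FPKM of Cldn5 was 1.27 to 2.35 times that of Tjp1 at 1.5 h, 1.40 to 1.51 times at 12 h and 2.92 to 3.53 times at 48 h, against 1.04 to 1.22 times in PBS. At 1.5 h it was 2.35 and 1.85 times in replicates 1 and 3, where long genes were low, and 1.27 times in replicate 2.

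Against 1.5 h, Cldn5 (0.96 ± 0.15), Tjp1 (1.19 ± 0.24) and Lsr (0.77 ± 0.14) rose at 12 h (adjusted p = 0.00105, 0.00494 and 0.0031), while 16.9% of all genes rose. Cldn5 (1.45 ± 0.15), Lsr (0.96 ± 0.14) and Jam2 (0.65 ± 0.18) rose at 48 h (adjusted p = 0.000111, 0.00135 and 0.0274), while 8.91% of all genes rose. Without 1.5 h replicates 1 and 3 the calls of Cldn5 at both times and of Lsr at 48 h held, with changes of 0.70, 1.19 and 0.77. Those of Tjp1 (0.52) and Lsr (0.57) at 12 h and of Jam2 (0.33) at 48 h did not.

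In whole tissue, fewer endothelial cells and less RNA per cell cannot be told apart. The level of endothelial genes was therefore set beside the members. All 20 endothelial markers were tested, and none was listed at 0 in all libraries. Their mean log2 deviation from PBS was 0.39, 0.29 and 0.23 in the 12 h libraries and 0.81, 0.02 and 0.17 in 48 h replicates 1, 3 and 4, against -0.05 to 0.03 in PBS. At 12 h, 7 of the 20 rose and 3 fell, against 13.3% and 7.9% of all genes. At 48 h 2 rose and 1 fell, against 7.5% and 5.01% of all genes. Pecam1, Cdh5 and Esam of this list also stand in the junction lists below. Pecam1 and Cdh5, adhesion proteins of endothelial contacts, had 8.03 ± 0.467 and 10.5 ± 4.06 FPKM at 12 h, against 1.79 ± 0.31 and 1.85 ± 0.393 FPKM in PBS. Their changes were 1.70 ± 0.29 and 1.97 ± 0.37 (adjusted p = 0.00181 and 0.00324). In contrast Itm2a, Slco1a4 and Abcb1a fell (-1.98, -1.57 and -0.98). In 48 h replicate 3, where the endothelial deviation was 0.02, Cldn5 stood at 38.6 FPKM. With each library scaled to its endothelial markers, Cldn5 changed by 1.05 at 48 h (adjusted p = 0.012) and by 0.59 at 12 h (adjusted p = 0.0987), and Lsr by 0.36 and 0.20 (adjusted p = 0.213 and 0.505). This scaling moved the median of all genes by -0.34 at 48 h and -0.30 at 12 h.

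**Figure D3:**
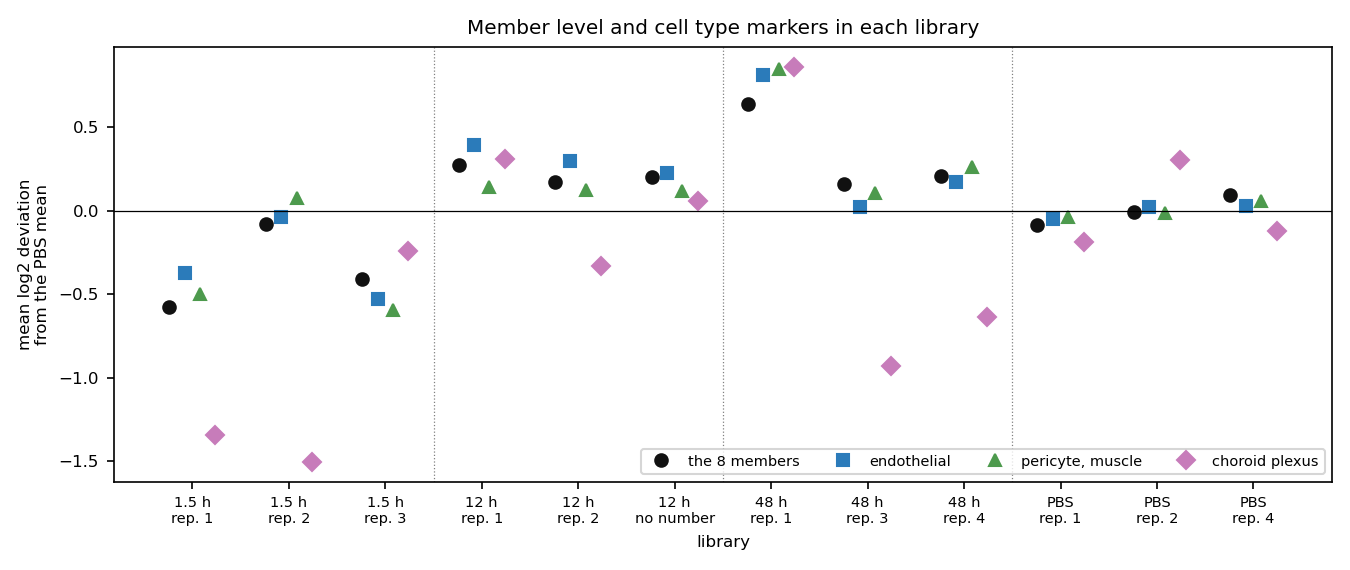
Mean log2 deviation from the PBS mean (vertical axis) of the 8 members, 20 endothelial, 7 pericyte and smooth muscle and 9 choroid plexus markers in each of the 12 libraries. In 48 h replicate 1 all 4 lists lie above 0.6, and in 1.5 h replicates 1 and 3 the members and vascular lists lie below -0.3.

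Other cell types that carry some of these genes also differed between libraries. Choroid plexus markers, from an epithelium with its own tight junctions, summed to 3.29 to 445 FPKM at 1.5 h, 301 to 720 FPKM at 12 h and 34.4 to 1001 FPKM at 48 h, against 426 to 673 FPKM in PBS. Their highest library, 48 h replicate 1, was also the highest 48 h library for all 8 members. Pericyte and smooth muscle markers deviated by 0.85 there, and by 0.11 and 0.26 in the others of that group. Summed over all 10 leukocyte markers, tested or not, levels were 14.0 to 23.8 FPKM at 12 h and 0.811 to 3.60 FPKM at 48 h. At 1.5 h they were 0.703 to 18.0 FPKM, with 18.0 FPKM in replicate 1, inside the 12 h range. In PBS they were 0.199 to 0.581 FPKM. Of the 10, 3 passed the filter, Cd3e only through the 12 h libraries. Platelet and red cell markers were highest in 1.5 h replicate 1, at 373 FPKM, against 2.0 to 31.1 FPKM in PBS. The part of these cell types in the members' values was not tested. Without 48 h replicate 1, Cldn5 and Lsr still passed at 48 h (1.28 and 0.59, adjusted p = 0.000638 and 0.0296).

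The rest of the tight junction was described from 3 lists with 68 genes in the table, of which 50 passed the filter and were tested. At 1.5 h 0 of 50 passed (median -0.09). At 12 h 13 rose and 0 fell (median 0.19), and at 48 h 0 rose and 2 fell (median 0.01). Of all genes, 7.5% rose and 5.01% fell at 48 h. The 12 h count was 7 to 10 with 1 library left out and 6 after rescaling to the same FPKM sum. Of the 50 genes, 5 passed the filter only through the 12 h libraries, among them 3 of the 13, so that 10 of the other 45 rose, and 13.3% of all genes rose. Of 23 other claudins and claudin-domain genes in the table, 10 were tested, 7 of them passing the filter without the 12 h libraries. Of these 7, 4 rose at 12 h, including Cldn23 (0.93 ± 0.21) and Cldn11 (1.36 ± 0.35). Cldn11, the claudin of myelin, was by far the most abundant at 262 ± 34.4 FPKM at 12 h against 101 ± 8.27 FPKM in PBS. Oligodendrocyte markers, a list that includes it, had a median change of 0.71. Of these 9, 2 rose, Cldn11 itself and Mobp, against 13.3% of all genes, so the list is no separate support for Cldn11. Cldn15, at 2.59 ± 0.479 FPKM at 12 h against 0.243 ± 0.141 FPKM in PBS, and Cldn7, at 1.15 ± 0.496 FPKM against 0.049 ± 0.0173 FPKM, passed the filter only through the 12 h group, so their difference is given with no count or test. Cldn1, an epithelial claudin, had a 12 h change of 0.32 ± 0.14, short of the threshold (adjusted p = 0.144).

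Among 12 other membrane proteins of the junction, Cxadr, a virus receptor that is also an adhesion protein, rose by 1.44 ± 0.14 and Esam, an endothelial relative of the JAMs, by 0.90 ± 0.19 at 12 h (adjusted p = 7.22e-05 and 0.00718). Jam3, the third JAM, had changes of 0.41 ± 0.18 at 12 h and 0.40 ± 0.18 at 48 h that did not pass (adjusted p = 0.141 and 0.188). Of 27 plaque and polarity genes that passed the filter without the 12 h libraries, 4 rose at 12 h, against 13.3% of all genes. The 4 included Ybx3, a DNA-binding partner of ZO-1 (0.54 ± 0.13, adjusted p = 0.0145), and Tjap1 (0.72 ± 0.18, adjusted p = 0.0161). At 48 h Shroom2 (-0.89 ± 0.20) and Arhgef2 (-0.55 ± 0.15) fell (adjusted p = 0.0133 and 0.0353).

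**Figure D4:**
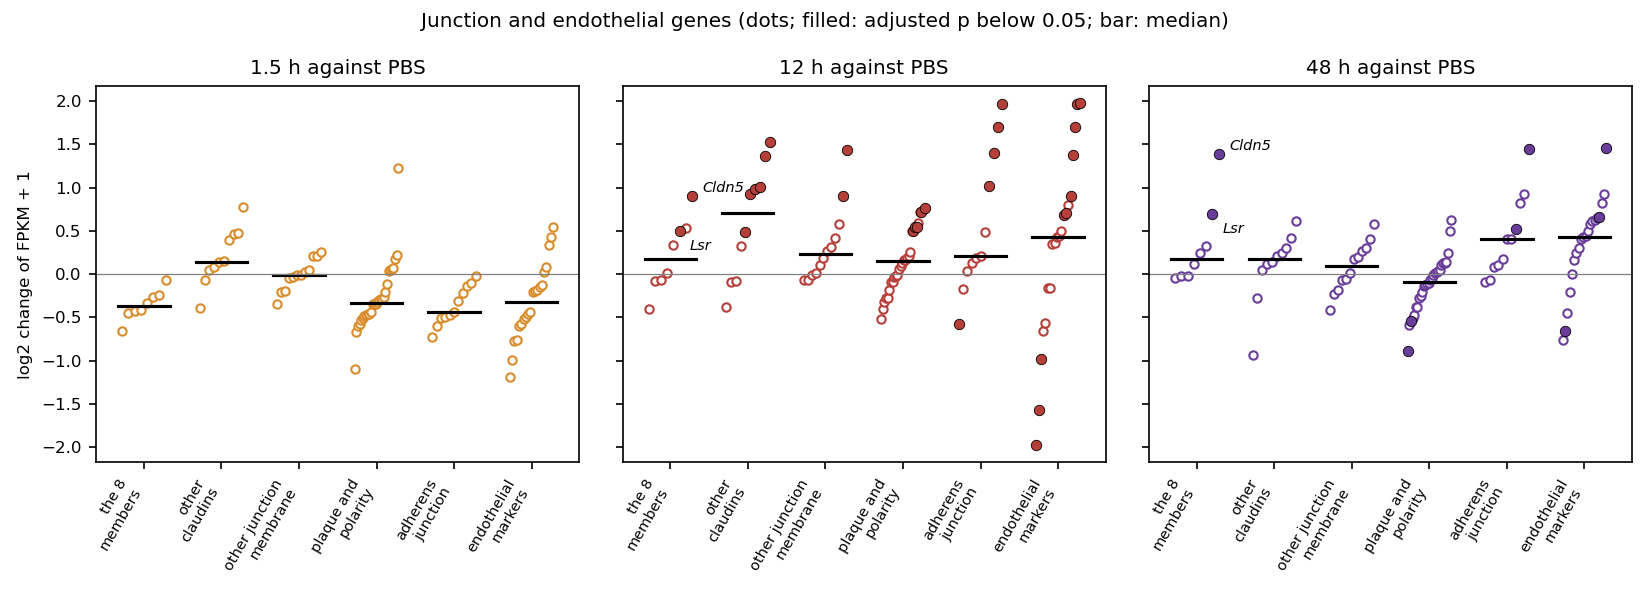
Change against PBS (vertical axis, log2 of FPKM + 1) of the tested genes of 6 lists at 1.5 h, 12 h and 48 h; each dot is a gene, filled where the adjusted p was below 0.05, and bars are medians. At 48 h Cldn5, at 1.39, is among the highest dots, next to single adherens junction and endothelial genes at 1.44 and 1.46.

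Of 11 adherens junction genes, 4 rose and 1 fell at 12 h, against 13.3% and 7.9% of all genes. At 48 h 2 of the 11 rose, against 7.5% of all genes. Those at 48 h were Jup, plakoglobin, at 24.1 FPKM against 8.26 FPKM in PBS (1.44 ± 0.14, adjusted p = 7.06e-05), and Ctnnb1, beta-catenin, at 88.9 FPKM against 61.7 FPKM (0.52 ± 0.12, adjusted p = 0.0152). Among 23 genes of barrier Wnt signalling and known regulators of claudin-5, 0 rose and 2 fell at 1.5 h, 4 rose and 2 fell at 12 h, and 6 rose and 0 fell at 48 h. Over all genes, 0.555% passed in either direction at 1.5 h, 13.3% rose and 7.9% fell at 12 h, and 7.5% rose and 5.01% fell at 48 h. At 12 h the 4 that rose were Sox7 (1.10 ± 0.18), Adgra2 (0.95 ± 0.15), Fzd4 (0.87 ± 0.26) and Tspan12 (0.65 ± 0.11). Their limma adjusted p-values were 0.00163, 0.00104, 0.0373 and 0.00183. The Wnt ligand gene Wnt7b rose at 48 h (0.96 ± 0.21, adjusted p = 0.0121), as did its coreceptor gene Adgra2 (0.79 ± 0.15, adjusted p = 0.0051). Sox18, an endothelial transcription factor, fell at 1.5 h (-1.01 ± 0.17, adjusted p = 0.0302) and rose at 48 h (0.82 ± 0.17, adjusted p = 0.00847). Apcdd1, a Wnt inhibitor of barrier endothelium, fell at 1.5 h and 12 h (-0.86 ± 0.16 and -0.75 ± 0.16, adjusted p = 0.0434 and 0.00635). Ndp, which encodes the ligand norrin, fell at 12 h (-0.51 ± 0.13, adjusted p = 0.0158) and rose at 48 h (0.52 ± 0.13, adjusted p = 0.0203).

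Likeness was measured as the root-mean-square difference of log2 values over the 12 libraries, each gene centred on its PBS mean. Among 13714 other genes with a mean of at least 1 FPKM, those most like Cldn5 were Lcp1 (0.15), Il13ra1 (0.17), Crispld2 (0.18), Mvp (0.19) and AU020206 (0.20). Lcp1 had 0.606, 2.18 and 3.69 FPKM at 1.5 h, 12 h and 48 h, against 0.666 FPKM in PBS, a level far below that of Cldn5. F11r was closest to Ccm2l (0.08) and Erg (0.13), Lsr to Adgre5 (0.12), Tjp1 to Ccdc50 (0.11) and Cldn12 to Nkap (0.08). Among the members themselves, Jam2 and Ocln were the closest pair, at 0.15. Since flat genes lie near each other by this measure, it describes course and size together and is no test.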

How the data were processed

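RNA was sequenced in 12 libraries of mouse brain in 4 groups of 3. Per the file headers, the deposited table holds FPKM values made by the authors, with gene length and coordinates. Per the submitters' processing notes, Bowtie 0.12.2 and build mm8 were used. Which program counted the reads, by which annotation and whether by strand, is not given in the sources used here. Of 54409 gene identifiers shared with GENCODE M21, 98.33% matched it in both ends, and GRCm38 is used for all positions. Multiplied by length, 100% of values fell within 0.05 of a whole number of steps in each library, and these numbers are the recovered reads. Intervals cover the spread between libraries only.

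A 12 h column carried a number that no title has and was used without a replicate number. The other 11 matched titles. Of the list symbols, 2 had no row.

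Genes above 0.5 FPKM in at least 3 libraries numbered 17664, and their log2(FPKM + 1) was tested by limma 3.58.1 under R 4.3.3 (mean-variance trend, 4 groups in one fit, 8 residual degrees of freedom, Benjamini-Hochberg over all genes). A change on this scale understates that of genes with low values. The fit was tested on simulated data. Genes below an FDR of 0.05 are said to have risen or fallen. From other lists, up to 4 genes past the threshold with the smallest p in each direction are named, plus Cldn1, Cldn11, Jam3, Esam, Pecam1, Cdh5 and Marveld2; a further gene of this rule is not reported here. Members and lists were chosen with earlier results of these data known.

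Alternatives were another pseudocount, filters, scalings, a length correction, fits of 2 groups, a replicate block, left-out libraries, no trend and a stricter FDR. Promoter sequences are from RefSeq (GRCm38.p6).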

Additional observations from a re-analysis of the deposited data

Results flagged for a closer look

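Some changes against PBS differed between times by the direct test of one time against the other. Cldn5 was higher at 12 h than at 1.5 h (log2 change 0.96), at 48 h than at 1.5 h (1.45) and at 48 h than at 12 h (0.49). Lsr was higher at 12 h and at 48 h than at 1.5 h (0.77 and 0.96). Tjp1 was higher at 12 h than at 1.5 h (1.19) and Jam2 at 48 h than at 1.5 h (0.65). Adjusted p-values of these limma tests ran from 0.000111 (Cldn5, 48 h against 1.5 h) to 0.0442 (Cldn5, 48 h against 12 h). The comparisons with 1.5 h rest in part on 1.5 h replicates 1 and 3, whose RNA composition stood apart, and its part in these differences was not tested beyond the values without them.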

How the results depend on the processing

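Over the 45 results for single members, which leave out Cldn5 against PBS, 764 alternatives were run, and 0 reversed a called change. Of these, 673 kept direction and side of the threshold, 35 lost the call, 18 gained it and 38 moved. Counted apart, Cldn5 against PBS moved in 4 of 18 alternatives at 1.5 h and lost its call in 3 of 17 at 12 h. The call of Cldn5 at 48 h against PBS held in all 17. The causes of the changes below were not tested. Against PBS at 12 h, where 2 members and 13 other junction genes passed, rescaling to the same FPKM sum left 0 and 6, an FDR of 0.01 left 1 and 6, 2 groups alone gave 4 and 21, and no filter left 1 member. Only 10 of the 13 would have passed the filter without the 12 h libraries, and 13.3% of all genes rose. The other counts of junction genes at 12 h, here and below, may hold such genes too. At 48 h, with 2 and 2, the rescaling left 1 and 1; an FDR of 0.01 left 0 other junction genes and 2 groups alone gave 7. For 48 h against 12 h, with 1 member, no filter, the rescaling, the length correction and an FDR of 0.01 left 0, and 2 groups alone gave 3. For 12 h against 1.5 h, with 3, leaving out both 1.5 h replicates 1 and 3 left 1. Cldn5 at 12 h was 0.77 after rescaling and 0.59 with endothelial scaling. At 1.5 h its change ranged from -0.61 to 0.25 over 18 alternatives, so its sign and size depended on the processing, and none passed the threshold. The highest value, 0.25, came with endothelial scaling, and without 1.5 h replicates 1 and 3 it was 0.20.

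Leaving out 1 library at a time gave 0 to 3 members and 0 to 19 other junction genes at 1.5 h, 1 to 2 and 7 to 10 at 12 h, and 1 to 2 other junction genes at 48 h; it gave 3 to 5 members at 12 h against 1.5 h, 2 to 7 at 48 h against 1.5 h and 0 to 1 at 48 h against 12 h. The highest values at 1.5 h and against 1.5 h came without 1.5 h replicate 2. Cldn5 at 1.5 h ranged from -0.19 to 0.0071.

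Replicate numbers did not pair the samples: over 11 same-numbered pairs the correlation of deviations had a median of -0.00351. A replicate block gave 0 members and 4 other junction genes at 12 h, 1 and 0 at 48 h, 1 member at 12 h against 1.5 h and 0 at 48 h against 12 h, and Cldn5 at 12 h was 0.90 (limma adjusted p = 0.052). Genes near 16 to 143 reads, such as Lsr and Cgn, are limited by depth.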
